A study of Drosophila melanogaster with 2 samples.

Results

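The aminoacyl-tRNA synthetases of the fly were followed here in the heads of adult males, with and without paraquat feeding. Members were all probe sets whose 1 annotated gene symbol joins the three-letter name of 1 or 2 amino acids to RS, with the ending -m for the mitochondrial enzymes. The rule found 34 probe sets for 30 genes, out of 12443 probe sets with 1 gene symbol for 10844 genes. Of these, 16 genes (19 probe sets) lack the ending and are called cytosolic here, and 14 genes (15 probe sets) carry it and are called mitochondrial. AlaRS-m, AspRS and MetRS, whose names in the RefSeq gene table also follow the rule, were not analysed here. That table lists no -m gene for glycine, histidine, lysine or threonine, among others. Whether a gene without the ending also serves the mitochondrion was not examined.

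An aminoacyl-tRNA synthetase joins an amino acid to its own tRNA, the step that fixes which amino acid a codon adds to a protein. Animal cells run this step in the cytosol and again in the mitochondrion, where a largely separate set of nuclear genes serves the proteins that the mitochondrial genome encodes. Many cytosolic synthetases are known in mammals as targets of ATF4, the transcription factor of the integrated stress response, which in the fly is encoded by crc.

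Poly(A) RNA from heads of males of the inbred w1118 stock (w118 in some labels), kept in constant darkness, was hybridised to 2 Affymetrix DrosGenome1 arrays, 1 for each group. The unexposed group was taken at adult day 3, and the paraquat group at the same age after 30 h on sucrose with 15 mM paraquat, a herbicide that produces superoxide in cells by redox cycling. The labels place the unexposed flies in food bottles, so diet cannot be told apart from paraquat. Each array pools the heads of many flies and has no replicate, so no p-value is given and no difference below has a replicate check.

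Values are intensities after both arrays were brought to the same median. Measured probe sets are those with an intensity of 477 or more on both arrays, a floor set at the 40th percentile of all probe sets. Each log2 ratio is paraquat over unexposed and is followed by ±1 SE of array error, which comes from control probe sets and leaves out any spread between flies or RNA preparations. Under the floor on 1 array only a bound is given, against the floor or the highest control for a transcript absent from the sample, whichever is higher on the dim array. That control stood at 446 on the unexposed and 533 on the paraquat array. Such a bound leaves out the array error of the brighter reading, so a small one is not a firm minimum.

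Most measured cytosolic synthetases had higher transcript levels on the paraquat array, while the mitochondrial ones lay on both sides of equality. Of 13 cytosolic genes measured on both arrays, 12 had a ratio above 0, 8 were higher by 2-fold or more and none was lower by as much. Over all 6178 measured genes, 52.2% had a ratio above 0, 8.03% passed 2-fold upward and 8.08% downward. The median log2 ratio of the 13 was 1.46, beside 0.03 for all measured genes. Of 8 measured mitochondrial genes, 5 had a ratio above 0, 1 passed 2-fold in each direction, and the median was 0.18. The cytosolic median exceeded the mitochondrial one by 1.28 on the log2 scale.

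**Figure D1:**
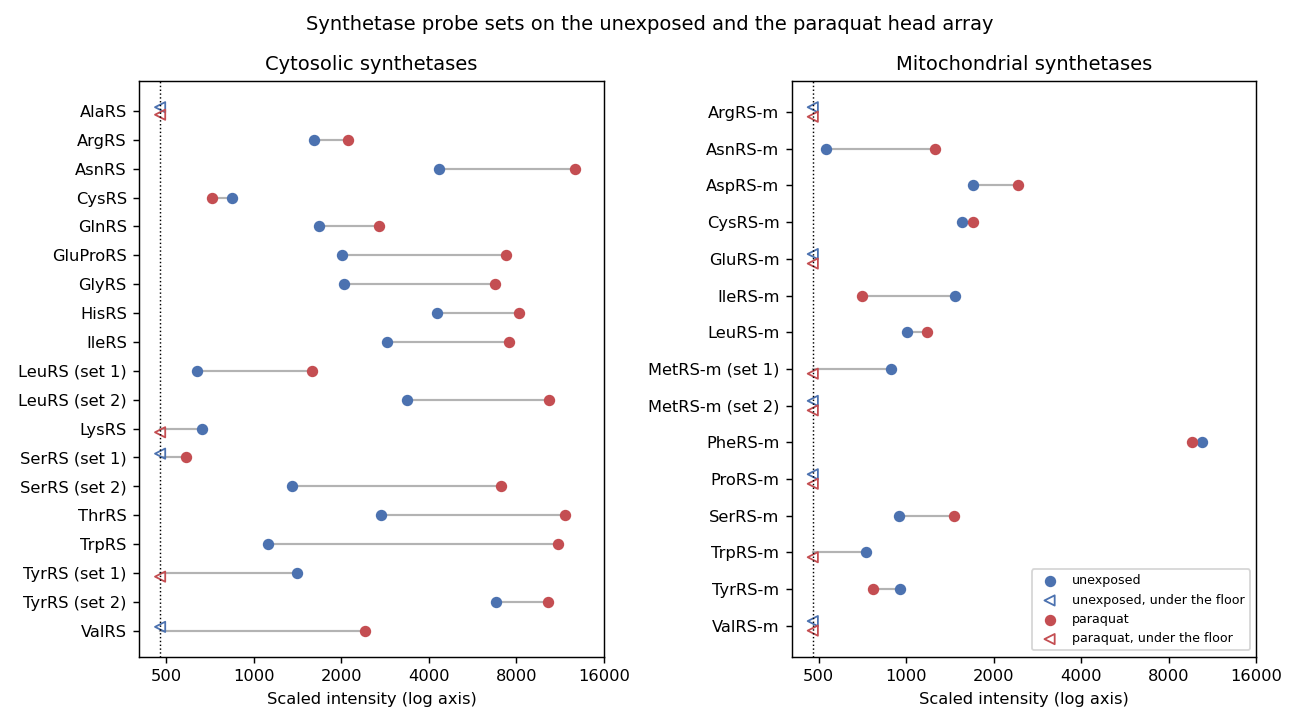
Scaled intensity of each synthetase probe set (log axis) on the unexposed array (blue) and the paraquat array (red), cytosolic enzymes at left and mitochondrial ones at right. The dotted line is the floor of 477, open triangles mark values under it, and sets 1 and 2 are different probe sets of a gene. Among cytosolic enzymes the red point lies to the right in most rows, furthest for TrpRS (1121 to 11133).

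TrpRS, which charges the tryptophan tRNA, showed the largest ratio of the family. Its probe set (149546_at) read 1121 on the unexposed and 11133 on the paraquat array, a 9.93-fold difference (log2 3.31 ± 0.48). SerRS, the serine enzyme, followed on 1 of its probe sets (142167_at), with 1357 against 7071, or 5.21-fold (log2 2.38 ± 0.40). The other SerRS probe set (141832_at) was close to the floor, at 439 and 586, and allows only a bound of at least 1.23-fold higher. Array error on the log2 scale was 1.54 at the floor, so the dimmer probe set settles no direction. Under a lower floor (the 30th percentile), where both SerRS probe sets enter, their mean log2 ratio was 1.40. SerRS overlaps the gene CG17260 in the RefSeq table, and a probe set of CG17260 was also under the floor when unexposed (95.3) and above it with paraquat (1422). The strand read by either probe set was not known here.

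ThrRS, the threonine enzyme, read 2747 unexposed and 11759.6 with paraquat, or 4.28-fold higher (log2 2.10 ± 0.23). GluProRS is a fused enzyme that charges the glutamate and the proline tRNAs from the same polypeptide, and it read 2019 unexposed and 7359.7 with paraquat (3.65-fold, log2 1.87 ± 0.29). GlyRS, whose human counterpart serves the cytosol and the mitochondrion and is mutated in an inherited neuropathy, read 2045 and 6764 (3.31-fold, log2 1.73 ± 0.29). These 3 probe sets were well above every absent control on both arrays.

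AsnRS, the asparagine enzyme, stood at 4348 unexposed and 12696 with paraquat (2.92-fold, log2 1.55 ± 0.17). LeuRS was read by 2 probe sets, 641 against 1587 on 1 and 3382 against 10406 on the other. Their folds were 2.48 and 3.08, and the gene's mean log2 ratio was 1.46 ± 0.45. IleRS, which charges the isoleucine tRNA, stood at 2879 and 7576 (2.63-fold, log2 1.40 ± 0.22). The 8 genes past 2-fold thus ran from 2.63-fold to 9.93-fold, each by more than the 95% interval of its array error. For SerRS this holds for its brighter probe set.

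ValRS, the valine enzyme, was not among the 13, because it was under the floor on the unexposed array (345) and read 2417 with paraquat. It was at least 5.06-fold higher. Among cytosolic enzymes, only SerRS (its dimmer probe set) and ValRS were seen on the paraquat array alone. Of all 12443 probe sets with 1 gene symbol, 843 were seen there alone.

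The remaining cytosolic enzymes differed less. HisRS, the histidine enzyme, came nearest to 2-fold, with 4285 against 8195 (1.91-fold, log2 0.94 ± 0.18). GlnRS, the glutamine enzyme, had a log2 ratio of 0.68 ± 0.38 (1681 against 2692) and ArgRS, the arginine enzyme, 0.39 ± 0.42 (1611 against 2112). For both, the 95% interval of array error included 0. CysRS, the cysteine enzyme, was the only measured cytosolic gene with a ratio below 0, at 846 and 718 (log2 -0.24 ± 0.95), both close to the floor.

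The tyrosine enzyme TyrRS gave opposite readings on its 2 probe sets. The brighter (142649_at) read 6839 unexposed and 10329.9 with paraquat, a 1.51-fold difference upward (log2 0.60 ± 0.15). The dimmer (141974_at) read 1409 unexposed and 365 with paraquat, below the floor, and so was at least 2.64-fold lower. The sign of TyrRS is therefore unsettled. LysRS, the lysine enzyme, was near the floor on both arrays (666 and 447, at least 1.25-fold lower), and AlaRS, the alanine enzyme, had negative values on both (-3867 and -322), which give no ratio.

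In total, 10 of the 13 measured cytosolic genes were higher by more than the 95% interval of array error, against 14.9% of all measured genes, and none was lower. The genes beyond it were the 8 past 2-fold, HisRS and TyrRS, with SerRS and TyrRS counted on their brighter probe sets alone. Under a floor at the 30th percentile, where the dimmer sets enter, the log2 ratio of SerRS was 1.40 and that of TyrRS -0.68. Of 4791 genes with a mean intensity within the range of the cytosolic synthetases (782 to 8584), 8.24% passed 2-fold upward and 7.79% downward. That range holds most of the measured genes, so it does not match brightness closely.

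**Figure D2:**
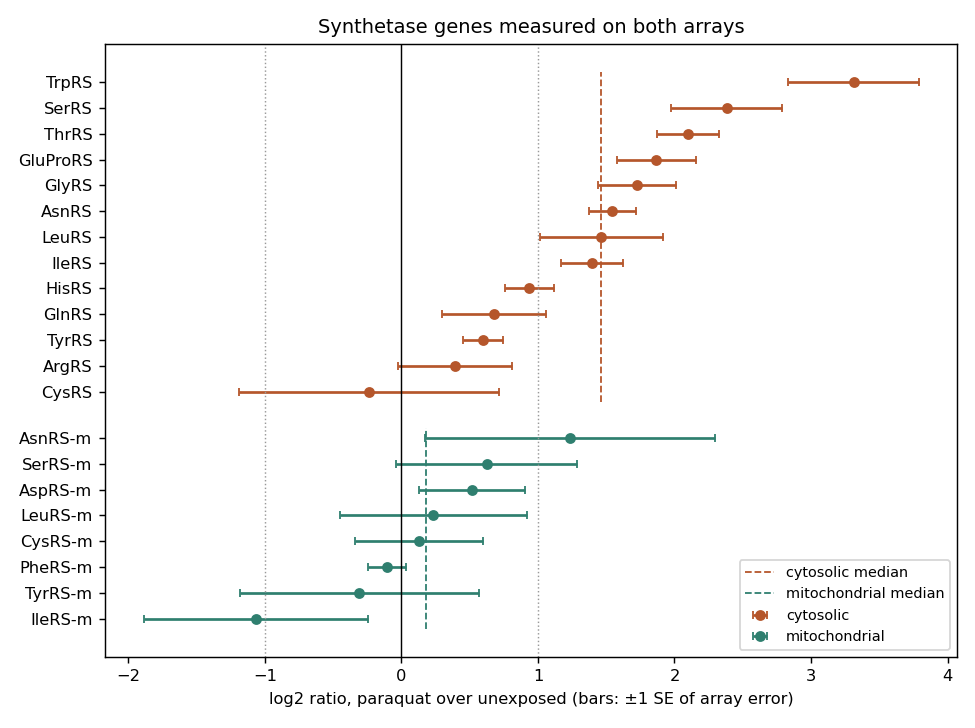
Log2 ratio, paraquat over unexposed, of the 21 synthetase genes measured on both arrays, with bars of ±1 SE of array error; dashed lines are the medians (cytosolic 1.46, mitochondrial 0.18) and dotted lines mark 2-fold. Cytosolic genes run from -0.24 to 3.31 and mitochondrial genes from -1.07 to 1.24.

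Synthetases fall into 2 unrelated structural classes, named I and II, which fold their catalytic domains differently. This grouping and the next were made after the values were seen. All 5 measured cytosolic class II genes (SerRS, ThrRS, GlyRS, AsnRS and HisRS) had ratios above 0, 4 of them past 2-fold, and their median was 1.73. Of 7 class I genes, 3 (TrpRS, LeuRS and IleRS) passed 2-fold, and the median was 0.68. The class I genes thus included both the highest ratio of the family and the low ones of GlnRS, TyrRS, ArgRS and CysRS. GluProRS, which joins an enzyme of each class, was counted in neither. The floor left out ValRS of class I (at least 5.06-fold higher) and LysRS of class II (at least 1.25-fold lower), among others. The difference between the classes was not tested.

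In animal cells several cytosolic synthetases sit together in a multi-synthetase complex, known best from mammals, while others work alone. Of the members assigned to the complex there, 5 were measured (GluProRS, LeuRS, IleRS, GlnRS and ArgRS), with a median log2 ratio of 1.40 and 3 past 2-fold. The 8 measured enzymes outside it had a median of 1.64 and 5 past 2-fold. Both groups spanned low and high ratios, from 0.39 to 1.87 inside the complex and from -0.24 to 3.31 outside it. The floor left out LysRS, also assigned to the complex (666 unexposed and 447 with paraquat), and ValRS outside it (345 and 2417), among others.

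Of the mitochondrial probe sets 53.3% were measured on both arrays, beside 73.7% of the cytosolic ones and 52.7% of all probe sets with 1 gene symbol. On the unexposed array 10 of their 15 probe sets reached the floor, and on the paraquat array 8 did, against 16 of 19 cytosolic probe sets on each array. The measured mitochondrial genes had a median mean intensity of 1146 and the cytosolic ones 4689, so array error was wider for most mitochondrial genes. None of the 8 lay beyond the 95% interval of array error. Genes with a mean intensity within their range (858 to 10010) passed 2-fold upward in 8.2% and downward in 7.97% of 4792 cases. That range holds most of the measured genes, so it does not match brightness closely. The 1 of 8 each way is near these shares.

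AsnRS-m, the mitochondrial asparagine enzyme, was the 1 gene at least 2-fold higher, at 532 unexposed and 1253 with paraquat (2.36-fold, log2 1.24 ± 1.06). Its unexposed value is close to the floor. IleRS-m, the isoleucine enzyme, was the 1 gene at least 2-fold lower, from 1476 to 705 (2.09-fold, log2 -1.07 ± 0.82). In both cases array error was not far below the ratio in size.

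PheRS-m, the phenylalanine enzyme, had the smallest array error of the mitochondrial genes, at 10378 and 9643 (log2 -0.11 ± 0.14). Its ratio was the one nearest to 0 in the whole family. CysRS-m (1552 and 1697) had a log2 ratio of 0.13 ± 0.47. AspRS-m, the aspartate enzyme, stood at 1701 and 2432 (0.52 ± 0.39). These 3 are the mitochondrial enzymes that stayed measured with the floor at the 60th percentile, where their median was 0.13 and that of 11 cytosolic genes 1.55. The difference of the medians was 1.42 there.

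LeuRS-m (1005 and 1180.5), SerRS-m (943 and 1454) and TyrRS-m (949.7 and 767) had log2 ratios of 0.23 ± 0.69, 0.62 ± 0.66 and -0.31 ± 0.87. Under the floor on the paraquat array alone were TrpRS-m (725 against 327, at least 1.36-fold lower) and 1 probe set of MetRS-m, the methionine enzyme (889 against -939, at least 1.67-fold lower). No mitochondrial probe set was seen on the paraquat array alone. Of all 12443 probe sets with 1 gene symbol, 831 were seen on the unexposed array alone and 843 on the paraquat array alone. ArgRS-m, GluRS-m, ProRS-m, ValRS-m and the other MetRS-m probe set were under the floor on both arrays and give no ratio.

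For 6 amino acids both enzymes were measured, so that each cytosolic ratio can be set beside its mitochondrial counterpart. The cytosolic ratio was higher in 5 of the 6. The largest gap was at isoleucine, where IleRS was higher and IleRS-m lower on the paraquat array (a difference of 2.46 ± 0.85 on the log2 scale). At serine the difference was 1.76 ± 0.78, and these 2 lay beyond the 95% interval of array error. Leucine (1.23 ± 0.82), tyrosine (0.90 ± 0.89) and asparagine (0.31 ± 1.08) had the same sign within that interval. The serine and tyrosine values rest on the brighter probe set of SerRS and TyrRS. With the floor at the 30th percentile, where the dimmer sets enter, serine came to 0.77 ± 1.01, inside the interval, and tyrosine changed sign (-0.37 ± 1.14). Isoleucine stayed at 2.46 there, beyond the interval. Cysteine went the other way (-0.37 ± 1.06). The median of the 6 differences was 1.07.

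**Figure D3:**
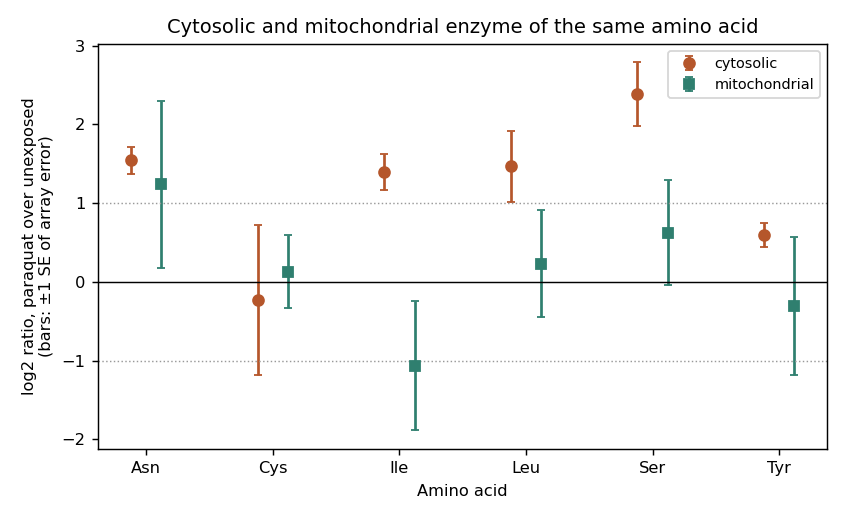
Log2 ratio, paraquat over unexposed, of the cytosolic (circles) and the mitochondrial enzyme (squares) for the 6 amino acids with both measured, with bars of ±1 SE of array error; dotted lines mark 2-fold. The cytosolic point is the higher one for all but cysteine, with SerRS and TyrRS shown by their brighter probe set, and the gap is widest for isoleucine (2.46).

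Tryptophan could not be given a difference but showed the same order. TrpRS was 9.93-fold higher while TrpRS-m passed from 725 to a value under the floor. For valine, arginine, glutamate and proline the mitochondrial enzyme was under the floor on both arrays.

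Proteins that work with the synthetases, listed together with synthetase subunits outside the symbol rule, had a median log2 ratio of 0.61. All 8 measured genes of this list had ratios above 0, 5 of them beyond the 95% interval of array error, and 1 passed 2-fold. The shares over all measured genes were 52.2%, 14.9% and 8.03%. That gene was beta-PheRS, the beta subunit of cytosolic phenylalanyl-tRNA synthetase (931 against 2307, log2 1.31 ± 0.61), and its partner subunit alpha-PheRS had a log2 ratio of 0.59 ± 0.29 on the probe set that was measured. Dtd, which removes D-amino acids wrongly joined to tRNA, had a log2 ratio of 0.77 ± 0.29. The complex scaffold AIMP2 read 22527 and 35872 (0.67 ± 0.12), with AIMP3 at 0.56 ± 0.25. AIMP1 was within the interval, at 0.22 ± 0.41. GatA and GatB, subunits of the amidotransferase that makes glutaminyl-tRNA in mitochondria, had ratios of 0.18 ± 0.37 and 0.62 ± 1.18, both within it.

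Enzymes that make or modify tRNA had 8 of 9 measured genes above 0, 2 of them past 2-fold, and a median of 0.70. The shares over all measured genes were 52.2% and 8.03%. Elp2, of the Elongator complex that modifies wobble uridines, stood at 614 and 2420.1 (log2 1.98 ± 0.88). Tgt, which inserts queuosine into tRNA, stood at 861 and 2119.7 (1.30 ± 0.66). The tRNA methyltransferase subunit gene wuho had a ratio of 0.97 ± 0.43. Only the paraquat array detected another 3 of the 13 genes of this list. Of all 12443 probe sets with 1 gene symbol, 843 were detected on that array alone.

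Factors of the step after aminoacylation differed little. The 4 measured cytosolic elongation factors, which act when charged tRNA is used at the ribosome, lay between -0.20 and 0.13, with a median of -0.05. These were eEF1delta (-0.20 ± 0.13), eEF1alpha2 (0.13 ± 0.13), eEF5 (-0.12 ± 0.12) and eEF1gamma (0.03 ± 0.12). The 4 measured mitochondrial translation factors had a median of 0.25 and none past 2-fold, led by mEFTu1 (2409 against 4142, log2 0.78 ± 0.27), with mEFG1 at 0.28 ± 0.59 and mEFTu2 at 0.23 ± 0.24.

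In the list for ATF4 and the integrated stress response, all 9 measured genes had ratios above 0 and 5 passed 2-fold, for a median of 1.03. Over all measured genes 52.2% lay above 0 and 8.03% passed 2-fold upward. The list also holds Ire1 and Atf6, endoplasmic reticulum stress sensors outside the ATF4 branch. Nmdmc is counted again among the genes of amino acid and one-carbon synthesis. The median is the value of PEK, 1 of the 5, which was close to the floor when unexposed (479 against 980, log2 1.03 ± 1.21). The initiation factor subunit eIF2beta read 5631 and 24335 (log2 2.11 ± 0.15), the mitochondrial folate enzyme Nmdmc 9450.4 and 35178 (1.90 ± 0.13) and the endoplasmic reticulum stress sensor Ire1 1349 and 3851 (1.51 ± 0.42). The gene for ATF4 itself, crc, stood at 82509 and 92164, a log2 ratio of 0.16 ± 0.12. These arrays measure transcripts and not ATF4 activity, and any part of ATF4 in the synthetase ratios was not tested.

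Genes for the supply of amino acids went both ways. Over all measured genes, 8.03% passed 2-fold upward and 8.08% downward. In amino acid and one-carbon synthesis, 2 of 13 genes passed 2-fold upward and 1 downward, and the median was -0.08. Besides Nmdmc these were Cbs, which makes cystathionine from homocysteine and serine (1859 against 6836, log2 1.88 ± 0.31), and P5CS, which starts proline synthesis (22273 against 10323, log2 -1.11 ± 0.13). Of 5 amino acid transporters, slif, a carrier of cationic amino acids, was 2.02-fold lower (log2 -1.01 ± 0.44). JhI-21 (0.97 ± 0.24) and path (0.96 ± 0.20) were higher, and the median was -0.17.

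**Figure D4:**
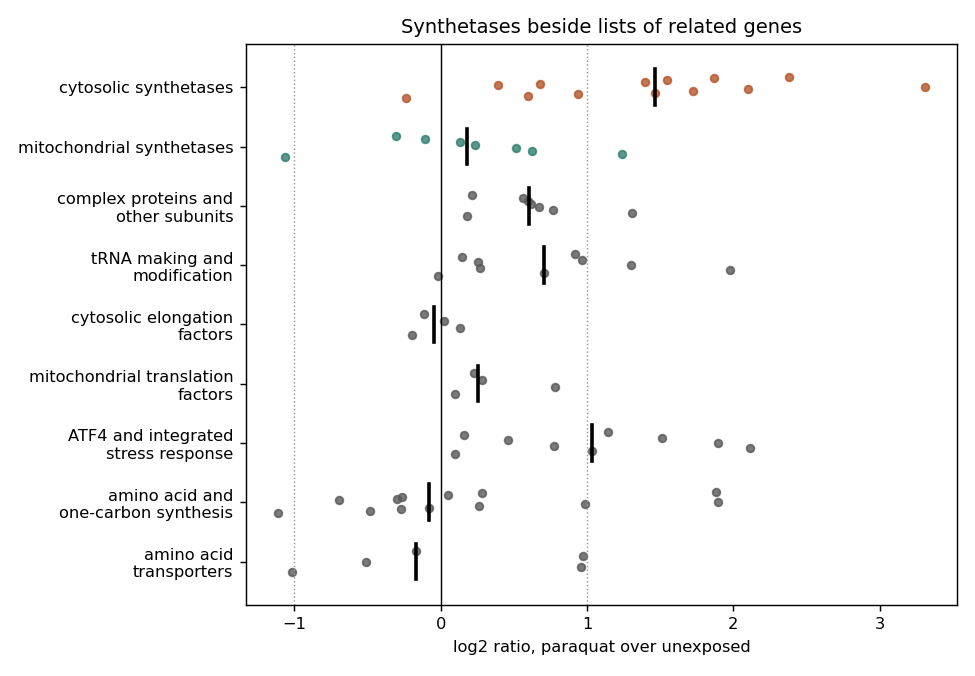
Log2 ratio, paraquat over unexposed, of each measured gene (points) in the 2 synthetase groups and 7 lists of related genes, with the median of each as a black bar and dotted lines at 2-fold. The cytosolic synthetases (median 1.46) and the list for ATF4 and the integrated stress response (1.03) lie furthest to the right, and the cytosolic elongation factors cluster at 0 (-0.05).

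Markers of several cell types also differed between the arrays, and the summed intensities given next cover every probe set of a list, measured or not. All 5 measured head fat body markers were lower with paraquat (summed 600971 unexposed against 91442). Of 12 male reproductive tract genes, whose products do not belong to the head, 8 were above the floor on the unexposed array only. The 3 measured were lower (45491 against 7048). Over all 12443 probe sets with 1 gene symbol, 831 were above the floor on the unexposed array only. All 6 measured muscle markers were lower (183202 against 65211), with TpnC4 and 1 probe set of up at or below 0 on both arrays. Of 3 measured gut enzymes 2 were lower and Amy-d was 2.68-fold higher (24564 against 21738), with Jon65Aiv and betaTry at or below 0. Of 6 measured glial markers 5 were lower, 3 of them past 2-fold, and loco was 3.58-fold higher (128175 against 104598). Most of the glial sum came from Gs2 (101176 against 82275). All 6 photoreceptor markers were measured on both arrays, and 5 of them were lower (463220 against 439989). Of 5 measured neuronal markers 4 were lower (54662 against 42834). Of the 10 neuronal probe sets, 6 reached the floor on both arrays, 1 on the paraquat array only and 3 on neither. Among these 3 was a Gad1 probe set at or below 0 on both arrays. In a whole-head sample fewer cells of a type and less RNA per cell cannot be told apart, and the part of these markers in the synthetase ratios was not tested.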

How the data were processed

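The authors deposited 1 intensity per probe set on a linear scale for each array, with negative values. Read from the values, both arrays had been scaled to a trimmed mean of 2500 (2% cut from each tail). Which software summarised the probes was not given in the sources used. Groups came from the sample titles. With Python 3.11.15 (pandas 2.3.3, statsmodels 0.14.6 for loess), the 13966 probe sets other than controls were scaled to a common median of 825.2 by factors of 1.01 (unexposed) and 0.99 (paraquat), floored at 477.3 and log2-transformed. Measured probe sets of a gene were averaged. Array error joins the SD of 46 absent-control values (358.3) with a proportional part from 9 spiked-in controls (SD of their log2 ratios, 0.12), and came to 1.54 at the floor. The calculation was tested on simulated data. The number of arrays limits the precision.

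Names come from a platform annotation of 2016. All 30 member genes matched the RefSeq table of Release 6, used for names and overlaps alone, in which 14 overlap another protein-coding gene. Tables of sequences and a genome were not used here. Members and lists were chosen with earlier results of these data known. Every member is accounted for. Described in full are those past 2-fold, those lowest and nearest to 0 and those with both enzymes measured, and in each list of related genes the 3 with the largest absolute ratio. Named outside that rule, after their values were seen, are alpha-PheRS, AIMP1, AIMP3, GatA, GatB, eEF1gamma, PEK, Atf6, crc and CG17260.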

Additional observations from a re-analysis of the deposited data

How the results depend on the processing

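No paired analysis was possible because each group held 1 array. A median counts as moved when it shifts by more than the proportional array error (0.12), a gene when it shifts by more than its own array error, and a count when it changes by over 1.5 times. The cytosolic count of at least 2-fold higher genes (8) lay between 7 and 9, and the cytosolic count of lower genes was 0, under every alternative run: deposited scale, quantile normalization, loess, other floors, a pseudocount, each probe set on its own, and members kept at the floor. Each of the 8 stayed past 2-fold wherever it was measured. The cytosolic median fell to 1.16 with the pseudocount. The mitochondrial median was 0.012 with members kept at the floor or with the floor at the 30th percentile, and -0.051 with the pseudocount. Mitochondrial counts moved with the floor: higher genes numbered 0 at the 60th percentile, at the highest absent control and with the pseudocount, and lower genes 0 at the 60th percentile and with the pseudocount and 2 at the 30th. AsnRS-m (0.78) and IleRS-m (-0.72) lost 2-fold under the pseudocount, and TyrRS changed sign there (-0.30) and at the 30th percentile (-0.68), where its dimmer probe set enters. SerRS, 2.38 on its brighter probe set, was 1.40 at the 30th percentile and 1.13 with the pseudocount. The serine difference between compartments was then 0.77 and 0.68 and that of tyrosine -0.37 and -0.10, all within the 95% interval of array error. The difference of medians was 1.42 at the 60th percentile, where fewer genes are measured, and 1.07 paired by amino acid. The cause of the other moves was not tested. The 20th percentile is below 0 (-20.4), so that planned floor was not run, and the 30th was chosen after seeing the data. The median of all measured probe sets shifted by -0.034 after loess and 0.032 on the deposited scale. Signal near the floor carries the widest array error (1.54 at the floor on both arrays).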
